A study of Saccharomyces cerevisiae with 2 samples.

Results

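HIS3 and DED1 are neighbouring genes on chromosome 15 of budding yeast (Saccharomyces cerevisiae), read in the same direction, with the promoter of DED1 lying between them. The locus was covered by 18 of the 41480 nuclear probes of a genome tiling array. Of these, 12 were annotated by the array to HIS3 or DED1 and 6 were the other probes starting within 1000 bp of them. HIS3 had 1 probe in its promoter and 2 in its coding region, and DED1 had 2 upstream, 5 coding and 2 downstream probes. The flanks held 3 coding probes of MRM1, which the array lists as PET56, and 3 probes of GEP3, which follows DED1 on the opposite strand. MRM1 is read away from HIS3, so that the HIS3 promoter probe lies between 2 start codons and belongs to both genes.

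HIS3 encodes imidazoleglycerol-phosphate dehydratase, an enzyme of histidine synthesis, and its promoter is one of the classic systems for studying transcription in yeast. It holds a constitutive element rich in A and T and an inducible element bound by the activator Gcn4 when amino acids are short. DED1 encodes an essential RNA helicase of the DEAD-box family that opens the leaders of mRNAs so that ribosomes can scan them. MRM1 encodes a methyltransferase of mitochondrial ribosomal RNA. Nucleosomes wrap DNA and hinder the binding of other proteins, and earlier nuclease mapping described the HIS3 and DED1 promoters as regions poor in nucleosomes.

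The study had 2 arrays, replicate 1 and replicate 2, which form 1 group. On each, nucleosomal DNA from chromatin digested with micrococcal nuclease, an enzyme that cuts between nucleosomes, carried Cy5, and genomic DNA from sonicated chromatin carried Cy3. The yeast had been arrested by alpha factor, the pheromone that stops cells in G1 before mating, and strain and genotype are not given in the sources used here. Nothing in the labels says that the arrays held DNA of separate cultures, so p-values reflect array-to-array spread alone, and this spread may be technical.

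Values are given as log2(Cy5/Cy3), centred so that the median probe of each array is at 0, and by the labels a value above 0 stands for more nucleosomal DNA than at a typical probe. This sign is the opposite of what earlier mapping of the HIS3 promoter would give. Mitochondrial DNA, which carries no histones, also stood high, with a median of 4.50 over 222 probes. Whether the channels hold the DNA that the labels name was not tested, and directions below are those of the channels as labelled.

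The locus had 1 high probe, in the HIS3 promoter, and a lower maximum on either side of the DED1 start. Against the array median, 10 of the 18 probes were higher and 8 were lower (limma, Benjamini-Hochberg adjusted p under 0.05). The test called 94% of all probes of the array, 46.9% above and 47% below, so that the counts of the locus are near the background and the sizes carry the description. The sign was the same on both arrays at 18 of 18 probes. The difference between the arrays had a median of 0.026, near the 0.030 over all kept probes, and was at most 0.46. No probe of the locus was saturated, and raw signals were 44.7 to 776 times the local background in Cy5 and 32.4 to 665 times in Cy3.

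**Figure D1:**
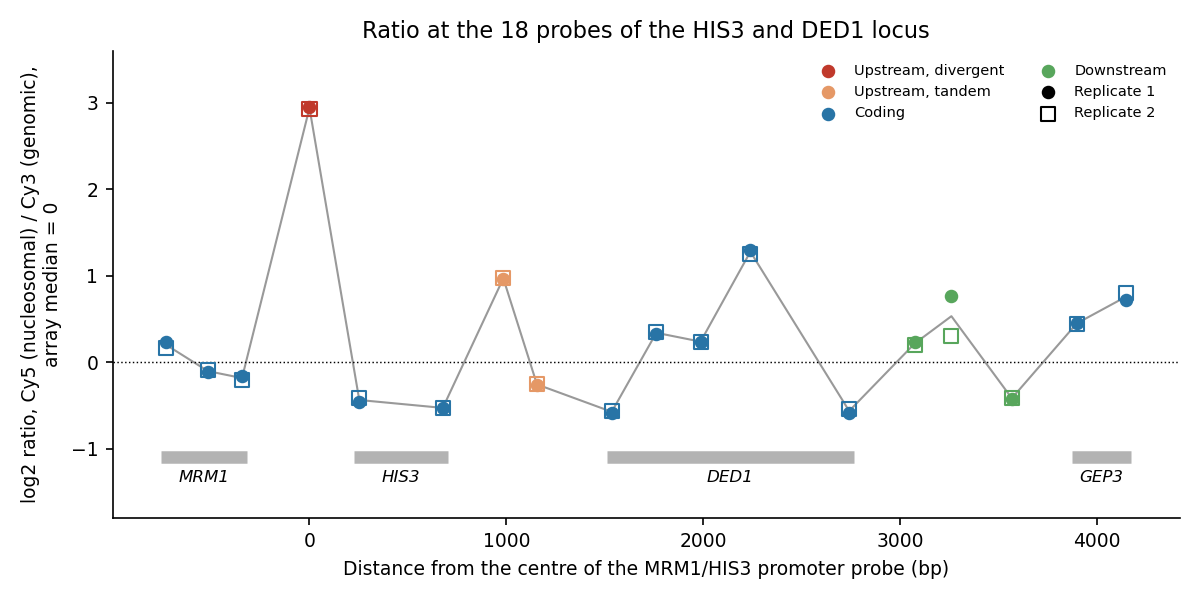
Log2 ratio of Cy5 (nucleosomal) over Cy3 (genomic DNA) on the vertical axis, array median at 0, at the 18 probes of the locus, by distance in bp from the centre of the probe in the shared MRM1 and HIS3 promoter. Filled circles are replicate 1, open squares replicate 2, the line joins their means, colours give the annotated region and grey bars span the coding probes shown of each gene. The promoter probe stands at 2.94, the farther DED1 upstream probe at 0.97 and the fourth DED1 coding probe at 1.28, and the other probes lie between -0.57 and 0.76.

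The promoter shared by MRM1 and HIS3 had the highest ratio of the locus. Its probe (chromosome 15, 721714 to 721771) stood at 2.95 on replicate 1 and 2.92 on replicate 2. The mean of 2.94 ± 0.019 (SD, n = 2 arrays) is a ratio 7.66 times that of the median probe (limma, adjusted p = 4.30e-07). Both arrays gave nearly the same height, and the spread between them was far below the distance to 0. Processed intensities at this probe were 2300 and 2215 in Cy5 and 324 and 319 in Cy3. The medians over kept nuclear probes on replicates 1 and 2 were 1445 and 1459 in Cy5 and 1463 and 1480 in Cy3. The probe was thus farther from the median in Cy3, where it was low, than in Cy5. Among 3356 probes between divergent genes, 89.2% were lower. Among the 444 divergent regions that held 1 kept probe, whose median was 0.95, 51 were higher than that of HIS3.

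The ratio dropped on both sides of this probe. The nearest MRM1 coding probe, centred 343 bp away, stood at -0.16 and -0.21 on replicates 1 and 2. From it to the promoter probe the ratio rose by 3.12 ± 0.011 (SD, n = 2 arrays; limma over all neighbouring probe pairs, adjusted p = 1.66e-08). The first HIS3 coding probe, centred 253 bp away on the other side (721966 to 722025), stood at -0.46 and -0.42. From the promoter probe to it the ratio fell by 3.38 ± 0.047 (adjusted p = 1.69e-08, limma). Of the 41216 neighbouring probe pairs of the nuclear genome, 96.7% differed by less than the first step and 97.6% by less than the second. The array placed 1 probe in this promoter, so where within it the ratio changed was not resolved.

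Both probes of the HIS3 coding region were below the array median. Among 30056 coding probes of the genome, 30.6% were lower than the first and 25.9% were lower than the second. The second coding probe (722394 to 722446) stood at -0.53 on both arrays, and the mean of both probes was -0.48 ± 0.012 (SD, n = 2 arrays). After normexp the second probe was -0.997. Of 5469 genes with coding probes, not matched on the number of probes averaged, 14.0% had a lower coding mean. The difference of upstream and coding means of HIS3 was 3.44 on replicate 1 and 3.40 on replicate 2, or 3.42 ± 0.030 (limma over all genes, adjusted p = 2.03e-08). It was the 167th largest of 4984 genes, also not matched on probe number, and it rests on 1 upstream and 2 coding probes. Of all genes the test called 74.9% higher upstream and 21.1% lower, with a median difference of 0.96, so the direction at HIS3 was the common one and its size was in the upper tail. For MRM1, measured on the same promoter probe and 4 coding probes of its own, the difference was 3.12 ± 0.0039.

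The DED1 upstream region held 2 probes that went in opposite directions. The probe farther from DED1 (722698 to 722757), which follows the end of HIS3, stood at 0.97 on both arrays (mean 0.97 ± 0.0028, SD, n = 2; limma, adjusted p = 2.51e-06). The nearer one (722869 to 722928) stood at -0.26 and -0.25, with a mean of -0.26 ± 0.0090 (limma, adjusted p = 1.56e-04). Their centres were 171 bp apart, and between them the ratio fell by 1.23 ± 0.0062 (limma, adjusted p = 2.20e-07). From the last HIS3 coding probe to the farther DED1 upstream probe it had risen by 1.50 ± 0.0079 (limma, adjusted p = 1.07e-07). The DED1 upstream maximum was centred 985 bp from the HIS3 promoter probe, with a lower probe on both sides of it. After loess it was 0.64, and the nearer probe was -0.52 after normexp.

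A drop toward the start codon was not rare. Of 3129 genes with 2 or more upstream probes, 52.5% had a lower ratio at the probe nearest the start than at the next one, and at 23.2% the nearest was below 0 and the next above 0, as at DED1. The median over these genes of the nearest minus the next probe was -0.15, and 29.6% had a more negative value than the -1.23 of DED1. The 3129 genes include those with a divergent promoter, whose probes count for both genes. Where such a promoter holds 2 probes, its genes go in opposite directions by construction. Shares for tandem promoters alone, the kind of DED1, are not given here. Among 5817 upstream probes between tandem genes, 61.9% were lower than the farther DED1 probe and 24.2% were lower than the nearer one.

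The coding region of DED1 was uneven and reached above the values of its promoter. The 5 coding probes had means from -0.57 to 1.28, with a median of 0.24. The first (723249 to 723308) and the last (724457 to 724513) were low, at -0.57 ± 0.018 and -0.56 ± 0.031 (SD, n = 2 arrays). The second stood at 0.34 ± 0.014 and the third at 0.24 ± 0.00048. The fourth (723955 to 724011) was the highest, at 1.30 on replicate 1 and 1.25 on replicate 2, a mean of 1.28 ± 0.031 (limma, adjusted p = 1.94e-06). Among 30056 coding probes of the genome, 96.4% were lower than this one. Into it the ratio rose by 1.04 ± 0.030 and after it the ratio fell by 1.84 ± 0.062, each past the threshold (limma, adjusted p = 5.03e-07 and 9.39e-08).

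Such a spread lay near the middle of genes with 5 or more coding probes, which were not matched on probe number. The range of 1.85 within DED1 lay next to the median range of 1.83 over these 2747 genes, of which 51.4% had a smaller one. DED1 had the fewest coding probes that this set allows, and a range tends to grow with their number. How its spread compares with that of genes with equally many probes was not tested. The highest DED1 coding probe exceeded the highest upstream probe by 0.31. This order was found in 780 of 2564 genes with 5 or more coding probes and an upstream probe, or 30.4%, also without matching on probe number. After normexp background correction the first, the second and the third coding probe no longer passed the test (-0.072, 0.074 and 0.28), and the last probe was -0.90. After loess the third was -0.013, the first -0.93 and the fourth 0.84.

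Averaged over its probes, DED1 had a small difference between promoter and coding region. The upstream mean was 0.35 and 0.36 on replicates 1 and 2, or 0.36 ± 0.0059 (SD, n = 2 arrays), and the coding mean was 0.14 and 0.15, or 0.14 ± 0.0063. The difference was 0.21 ± 0.00043 (limma, adjusted p = 2.96e-04), and 28.9% of genes, not matched on probe number, had a lower one. It is a mean over opposite values: with upstream probes within 250 bp of the start only, which leaves the nearer one, it turned to -0.40 (limma, adjusted p = 1.93e-05). After normexp the difference was 0.078 and the upstream mean 0.18, and neither passed (limma, adjusted p = 0.626 and 0.268).

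The neighbours were then set against each other in 1 fit over all pairs of adjacent genes on the same strand. The HIS3 upstream mean exceeded that of DED1 by 2.60 on replicate 1 and 2.57 on replicate 2, or by 2.58 ± 0.024 (SD, n = 2 arrays; limma, adjusted p = 6.20e-15), a ratio 5.99 times as high. The test called 47.6% of the 2126 pairs higher in the first gene and 48.4% lower. The adjusted p of HIS3 and DED1 varies with the pairs fitted. With the whole intergenic region their upstream difference and its SD were unchanged, and it was 2.63e-08 (limma). By size alone, 87.2% of the 2126 pairs, not matched on probe number, differed by less than HIS3 and DED1. In the coding regions the order was the opposite, since HIS3 minus DED1 was -0.63 ± 0.0055 (limma, adjusted p = 7.11e-08). Of 2600 pairs, for which the test called 45.7% higher and 46.8% lower, 75.2% differed by less in size, also without matching. The coding difference kept its sign after loess (-0.45) and normexp (-0.89).

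**Figure D2:**
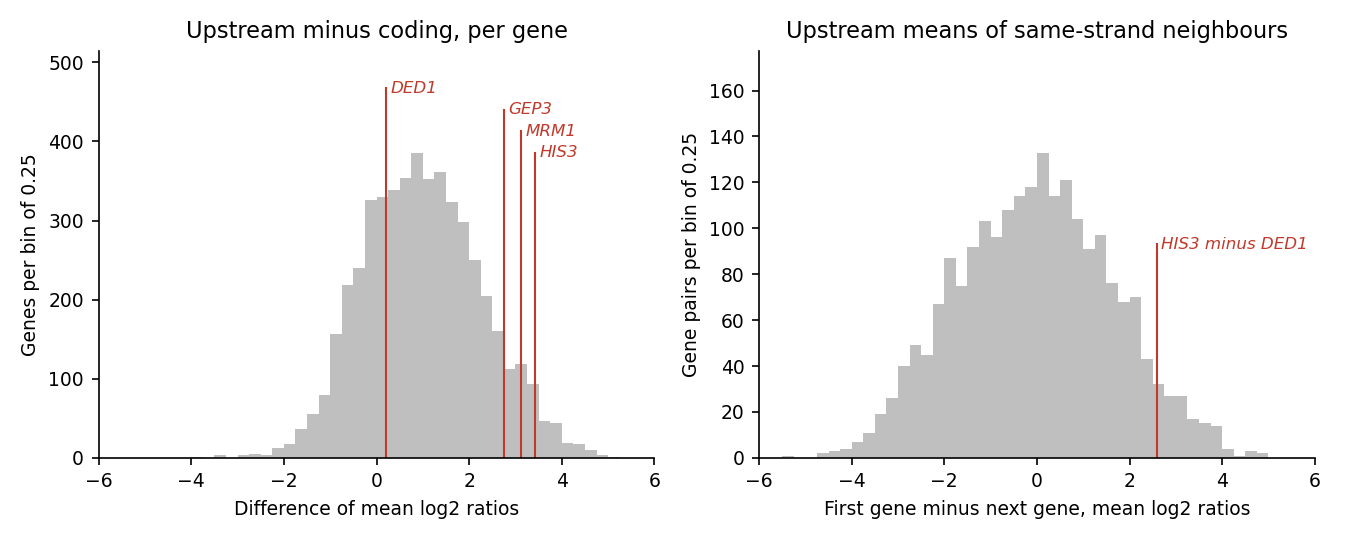
Left, the number of genes by upstream minus coding difference of mean log2 ratios for 4984 genes, with the 4 genes of the locus marked by lines. Right, the number of same-strand neighbour pairs by the difference of their upstream means, first gene in the direction of transcription minus the next, for 2126 pairs. DED1 (0.21) lies left of the centre of the first distribution and HIS3 (3.42) in its right tail, and HIS3 minus DED1 (2.58) lies in the right tail of the second.

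Past the end of DED1 the first downstream probe stood near the median, and the next 2 probes were dim. The first downstream probe (724789 to 724848) stood at 0.23 and 0.20, and 50.7% of 1878 probes between gene ends were lower. After normexp it was -0.00036 and did not pass. The second (724975 to 725034) stood at 0.76 on replicate 1 and 0.30 on replicate 2, with a mean of 0.53 ± 0.33 (SD, n = 2 arrays; limma, adjusted p = 0.010). It was the probe of the locus on which the arrays differed most, by 0.46, and its processed intensities were 235 and 285 in Cy5 and 151 and 253 in Cy3. It was 1.77 after normexp, and after loess it no longer passed (0.092, limma, adjusted p = 0.556). The next probe, downstream of GEP3 (725282 to 725341), stood at -0.43 and -0.41. It was similarly dim, at 134 and 148 in Cy5 and 196 and 215 in Cy3, and after normexp it turned to 1.48.

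**Figure D3:**
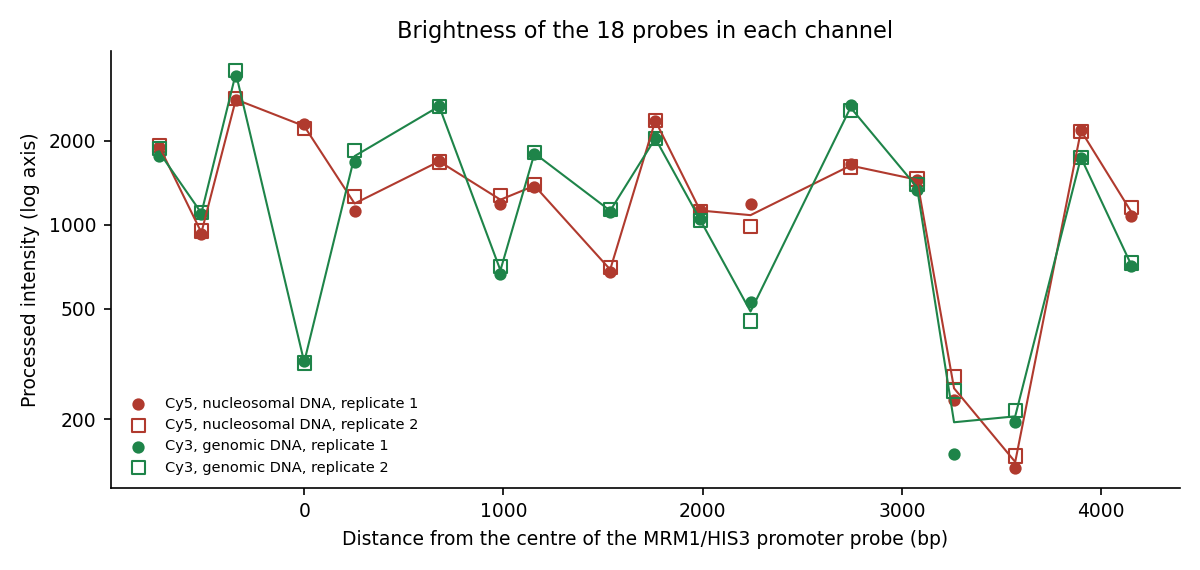
Processed intensity on a log axis of the 18 probes in Cy5 (nucleosomal DNA, red) and Cy3 (genomic DNA, green), by distance in bp from the centre of the MRM1 and HIS3 promoter probe, with circles for replicate 1, squares for replicate 2 and lines through their geometric means. Brightness also depends on a probe's own bases, so the channels are compared at 1 probe at a time. At the promoter probe Cy5 (2300 and 2215) lies far above Cy3 (324 and 319), and the second DED1 downstream probe and the GEP3 downstream probe are dim in both channels.

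The MRM1 coding probes stood at 0.20 ± 0.044, -0.10 ± 0.014 and -0.18 ± 0.030 (SD, n = 2 arrays), in order of position. The last of them turned to 0.28 after loess but was -0.69 after normexp, and the second was -0.38 after loess. The first 2 turned to -0.048 and 0.078 after normexp, neither passing the test. The GEP3 coding probes stood at 0.45 ± 0.0083 and 0.76 ± 0.051. The first no longer passed after normexp (0.26), and the second was 0.41 after loess. At the limits set by the distance of 1000 bp, the outermost MRM1 probe included had 0.20 and the next one left out -0.63, while the outermost GEP3 probe included had 0.76 and the next one left out 0.17. Between neighbouring probes of the locus, 16 of 17 steps passed the test, 8 up and 8 down (limma), beside 93.6% of all steps, 47.3% up and 46.3% down. The step that did not pass, between the second and the third MRM1 coding probe, was -0.080 ± 0.043 (limma, adjusted p = 0.055).

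HIS3 was compared with the other genes of histidine synthesis. Of 7 genes, HIS1 to HIS7 by name, 4 were above the array median upstream and 3 below (limma), where the test called 73.6% of 4989 genes above and 23% below. The median of the list was 0.13, against 0.88 over all genes. HIS3 had the highest upstream mean. HIS1, the gene of the first enzyme of the pathway, had 2.37 and 2.39 on replicates 1 and 2, and HIS4, a gene long studied for its control by Gcn4, had 1.33 and 1.37. HIS5, which encodes an aminotransferase of the pathway, was the lowest at -1.28 and -1.30, so the upstream regions of the pathway covered both ends of the scale. With the whole intergenic region HIS5 turned to 0.24. HIS7 (0.13 ± 0.010), one of the 4 above, was near 0. It turned to -0.14 after loess, and no longer passed after normexp (0.24) or without centring (0.0029). In the coding region 7 of 7 were below the median, beside 55.6% of all genes, with a list median of -0.21 against -0.082. HIS5 was nearest the array median there, at -0.053 ± 0.0069 (SD), and these coding calls are not given under other processing.

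DED1 was likewise set beside 10 other genes of translation initiation that depends on the mRNA cap. Of the 11 with DED1, 10 entered the fit of upstream means, of which 7 were above the array median and 3 below (limma), beside 73.6% and 23% of all genes, with a list median of 1.02 against 0.88 over all genes. After normexp PAB1 (0.63), DED1 (0.18) and TIF4631 (-0.039) no longer passed. PAB1, the gene of the poly(A)-binding protein, also turned to -0.93 with a window of 250 bp. TIF1, one of the genes of the helicase eIF4A, had 1 upstream probe, which was above the array median (0.46 and 0.31 on replicates 1 and 2; limma over probes, adjusted p = 7.58e-04), but no coding probe, and is not in these counts. CAF20, a gene of a protein that binds the cap-binding factor, was the highest, at 2.25 and 2.23. EAP1, which encodes another such protein, was the lowest, at -1.38 and -1.35. DBP1, the close relative of DED1 in sequence and function, had 1.58 and 1.52 upstream, against 0.35 and 0.36 for DED1, a difference that was not tested. With a window of 250 bp DBP1 was 3.34 and DED1 -0.26. In the coding region 2 genes were above the median, DED1 and DBP1 (0.081 ± 0.015), 7 were below and 1 was not called. The coding calls of the list are not given under other processing. Leaving out the centring shifts values by -0.13, which is larger in size than the DBP1 mean. The test placed 38.3% of all genes above and 55.6% below. The list median was -0.15, against -0.082 over all genes.

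**Figure D4:**
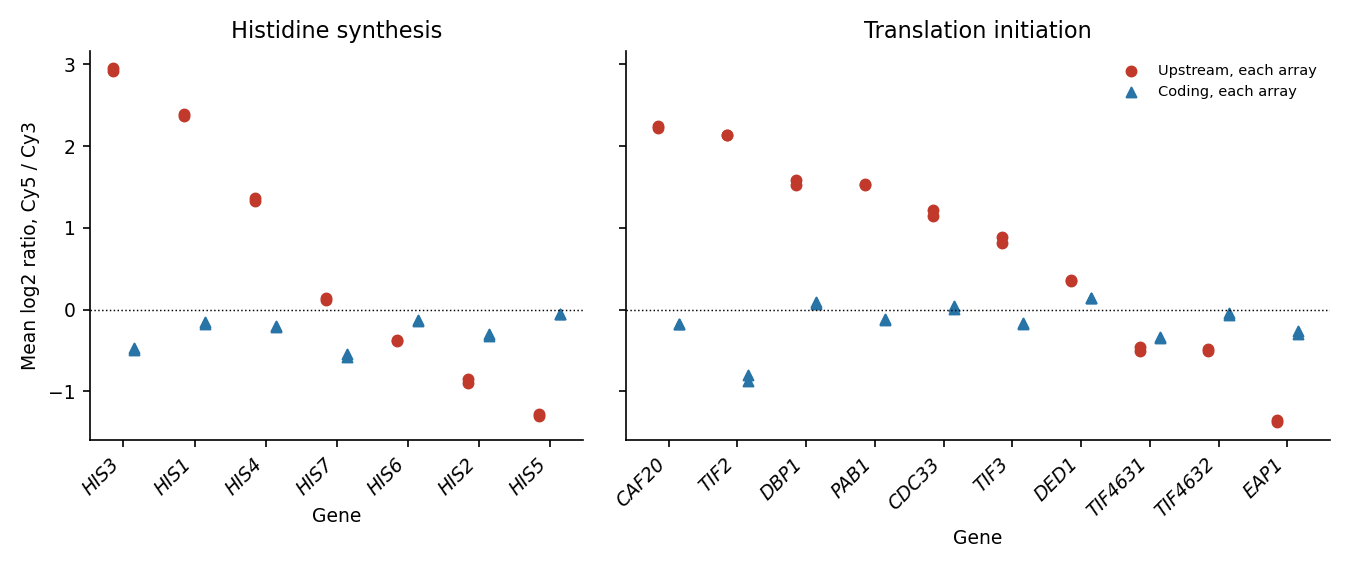
Mean log2 ratio of Cy5 over Cy3 on each array for genes of histidine synthesis (left) and of cap-dependent translation initiation (right), with upstream means within 500 bp of the start codon as red circles and coding means as blue triangles, ordered by upstream mean. Upstream values run from 2.94 at HIS3 to -1.29 at HIS5 on the left and from 2.24 at CAF20 to -1.36 at EAP1 on the right, with DED1 at 0.36, while coding values lie between -0.84 and 0.14.

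Likeness was measured as the Euclidean distance in the pair of upstream and coding means, over 2 arrays and 4591 genes. Nearest to HIS3 were RPS27A, a gene of a small-subunit ribosomal protein, with 2.93 upstream and -0.49 coding (distance 0.015), APM3, a subunit gene of an adaptor complex of vesicle transport, with 2.91 and -0.45 (distance 0.044), and MRX11, with 2.93 and -0.43 (distance 0.058). Nearest to DED1 were ARA1, which encodes an arabinose dehydrogenase, with 0.36 and 0.14 (distance 0.0034), REC104, a gene of meiotic recombination, with 0.36 and 0.12 (distance 0.025), and PIP2, a transcription factor gene of the response to oleate, with 0.38 and 0.15 (distance 0.026). These genes share the 2 values with HIS3 or DED1 on these arrays. The DED1 upstream mean lies between probes at 0.97 and -0.26, whereas REC104 and PIP2 had 1 upstream probe each. For APM3 and MRX11 the SD of the upstream value between arrays (0.064 and 0.077) exceeded the distance to HIS3. For ARA1 the SDs of the upstream and coding values (0.0046 and 0.016) exceeded the distance to DED1. The upstream SD of HIS3 itself (0.019) exceeded its distance to RPS27A.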

How the data were processed

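Both arrays compared Cy5-labelled nucleosomal DNA with Cy3-labelled genomic DNA, per the labels, without a dye swap, so averaging leaves any dye bias in place. The deposited scanner files hold spot intensity, raw and processed; the software, Agilent Feature Extraction 9.1.3.1, subtracted background, detrended over the slide and normalized the dyes, per the file headers. Their log10 ratio, as deposited, was not used. A deposited value table of log2 ratios equalled log2 of processed Cy5 over Cy3, not centred, to within 5.00e-06.

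From processed intensities, log2 ratios of 41775 probes were centred on each array's median (-0.13 on both before centring), with no loess or quantile step. Non-uniform spots (174) and probes with Cy3 not well above background (147 more) were left out, which left 41454, including all 18 of the locus. The number of arrays limits the precision. Probe coordinates are the array's, with a build not given in the sources used here. Names were updated through a RefSeq table (5663 of 5689 matched), from which no coordinates were taken. Start codons were placed midway between flanking upstream and coding probes, and upstream means took probes within 500 bp.

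Probes, steps between neighbouring probes, gene means, and differences within and between genes were each fitted genome-wide with limma 3.58.1 in R 4.3.3 (intercept, eBayes, 1 residual degree of freedom, Benjamini-Hochberg, threshold 0.05). The code was also run on data simulated from the spread that limma had fitted, with independent arrays and nearly all features at 0. That run cannot show how the test behaves on these arrays. Tables were made in Python 3.11.15 (pandas 2.3.3, numpy 2.4.6) and figures with matplotlib 3.10.9. Alternatives were normexp with an offset of 50, loess, no centring, other filters, other upstream windows and single arrays. All probes of the locus were named, with the highest and lowest upstream genes of each list and the 3 genes most like HIS3 and DED1 among those with at least 2 coding probes. Members and lists were chosen with earlier results of these data known, and a few other list genes were named after their values were seen.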

Additional observations from a re-analysis of the deposited data

How the results depend on the processing

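The difference of HIS3 upstream and coding means ran from 3.02 to 3.44 over the alternatives. That of the HIS3 and DED1 upstream means ran from 2.29 to 3.20, and that of their coding means from -0.89 to -0.45. Each kept its direction and passed the test wherever one could be made. A single array allows no test. Some of these runs used the same probes and so could not change the value. These were the other filters for each difference, both other windows for the HIS3 difference, and the whole intergenic region for the upstream difference. The DED1 difference turned to -0.40 with a window of 250 bp, which leaves 1 of its 2 upstream probes (DED1 upstream mean -0.26), and was 0.078 after normexp, no longer passing (limma, adjusted p = 0.626). After normexp 11 of the 18 locus probes were called, 6 above and 5 below, and 11 steps, 6 up and 5 down. The shares of all probes and of all steps called after normexp are not given here, so these counts have no background beside them. Signs turned after normexp at the first MRM1 coding probes (-0.048 and 0.078), the first DED1 downstream probe (-0.00036) and the GEP3 downstream probe (1.48), and after loess at the third coding probe of MRM1 (0.28) and that of DED1 (-0.013). HIS7 turned to -0.14 after loess, HIS5 to 0.24 with the whole intergenic region and PAB1 to -0.93 with 250 bp. HIS7 (0.24), PAB1 (0.63), DED1 (0.18) and TIF4631 (-0.039) upstream lost their calls after normexp, and HIS7 without centring (0.0029). Apart from the window, the cause was not tested. Without centring values shift by -0.13, and no locus probe changed its call. Filters on dim or saturated probes changed no call in the locus. The second DED1 and the GEP3 downstream probe were dim, and whether this bears on their changes was not tested. No paired analysis was possible because there is 1 group.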

Other observations

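Across the 41232 kept nuclear probes the channel labelled genomic varied more than the one labelled nucleosomal. The SD of log2 processed intensity was 0.84 in Cy5 and 1.17 in Cy3 on replicate 1, and 0.84 and 1.18 on replicate 2. Over the 18 probes of the locus it was 1.12 in Cy5 and 1.28 in Cy3 on replicate 1, and 1.06 and 1.20 on replicate 2. Brightness also depends on the bases of each probe, and no probe sequence was used here.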
